A study of Saccharomyces cerevisiae with 6 samples.

Results

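The 68 genes described here encode, with the exceptions named below, proteins of the mitochondrial ribosome of budding yeast. The rule used names only: the platform's gene symbol had to be MRP, MRPL, MRPS or RSM followed by a number, or NAM9. The family itself was chosen with earlier results of these data known. All 68 were measured, by 69 probe sets, out of 5656 genes and 6504 probe sets that stand for exactly 1 gene. Only MRPL44 had a second probe set, and the brighter one on average was taken for it. By their systematic names 38 members belong to the large subunit and 29 to the small subunit. MRP8 was put in neither, since it was named for a resemblance and is not known as a ribosomal protein. RSM22, counted with the small subunit by name, is also described as a methyltransferase-like protein of ribosome assembly.

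The mitochondrial ribosome translates the few messages of the mitochondrial genome, most of which encode core subunits of the respiratory chain and of the ATP synthase. Its RNAs and the protein Var1 are encoded in mitochondria, while all its other proteins are encoded in the nucleus, made in the cytosol and imported. Many of them descend from proteins of bacterial ribosomes and the rest are found in mitochondria only. In yeast, cells that cannot translate in mitochondria are unable to respire and tend to lose mitochondrial DNA, but can still ferment glucose.

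Poly(A) RNA from 6 cultures of W303, a laboratory strain, was hybridised to 1 Affymetrix yeast array per culture. The first group was 3 [gar-] cultures, and the second was 3 cultures that carry the prion [GAR+], an inherited state carried by protein rather than by a DNA sequence. Such cells can use some other carbon sources although a glucose mimic is present. Both groups shared the strain and a complete synthetic medium with 2% glucose, and were harvested late in exponential growth at an OD600 of about 0.8, a condition in which glucose is mostly fermented. The labels describe the cultures of a group as separately grown and do not say whether they came from different clones or what the culture numbers 1 to 3 share between groups.

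Signals are given after quantile normalization of the 6 arrays, in arbitrary array units, because the deposited arrays did not share a scale: their trimmed means ranged from 192 to 500. HXT3, the glucose transporter transcript known to be low in [GAR+] cells, read 3559 to 4404 in [gar-] cultures and 42.8 to 75.4 in [GAR+] cultures, in the order of the labels. Transcripts specific to mating type a summed to 5334 to 8518 per array. Those specific to mating type alpha summed to 103 to 138, and 6 meiosis and sporulation transcripts to 124 to 177. The array of [gar-] culture 2 stood apart from the rest for the members as a set, and that of [GAR+] culture 2 for single members such as MRP7 and NAM9. Median changes are therefore also given without [gar-] culture 2 and without both arrays numbered 2. On the array of [gar-] culture 2 the ratio of the 3′ to the 5′ control probe set of the gene YER148w was 1.78, against 2.74 to 3.25 on the other arrays. For actin the same ratio was 1.05 in [GAR+] culture 2, 1.17 in [gar-] culture 2 and 1.25 to 1.68 elsewhere. For YER022w it was highest on the array of [gar-] culture 2, and 4.30 to 7.11 elsewhere. The part of these ratios in the results below was not tested.

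All 68 members were detected above control level. The highest of 13 control probe sets, which stand for the sense strand of bacterial and phage spike transcripts or for mouse genes, read 12.7 to 27.6 per array, and 0 members lay at or below it on any of the 6 arrays. The mean signal of the members ran from 51.9 for RSM22 to 1027 for RSM7. Signals of different probe sets do not measure relative abundance, so no order of the genes is read from them.

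The members varied from culture to culture more than most tested probe sets, and largely together. The SD over the 6 arrays, on the log2(signal + 16) scale used for all changes, had a median of 0.29 among members and 0.21 among all tested probe sets. For 55 of the 68 members it was above that second value. The tested probe sets include dim ones, whose changes the added 16 pulls toward 0, and the comparison was not matched for signal. Expressed as the difference from each gene's own mean over the 6 arrays, the median member was at -0.03, -0.39 and 0.09 log2 units in [gar-] cultures 1, 2 and 3. It was at 0.16, -0.04 and 0.27 in [GAR+] cultures 1, 2 and 3. In each group culture 2 had the lowest median and culture 3 the highest, and the groups overlapped, since [gar-] culture 3 lay above [GAR+] culture 2. Over all tested probe sets the same medians were between -0.01 and 0.03.

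The low level of [gar-] culture 2 ran through most of the set. For 48 of 68 members (70.6%) the lowest of the 6 signals was that of [gar-] culture 2, which was the lowest for 20.0% of all tested probe sets. For another 15 members (22.1%) it was that of [GAR+] culture 2, against 22.2% of all tested probe sets. Both arrays numbered 2 were the 2 lowest for 26 members (38.2%), against 12.0% of all tested probe sets. Of the 29 small subunit members, 29 had their lowest signal in a culture numbered 2, as had 34 of 38 large subunit members, against 42.2% of all tested probe sets. The exceptions were MRPL9, MRPL17, MRPL20 and MRPL39 in the large subunit and MRP8 in neither, and they were named after their values were seen. The cause was not tested, and with a single array at each number and group a culture and its array cannot be told apart.

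**Figure D1:**
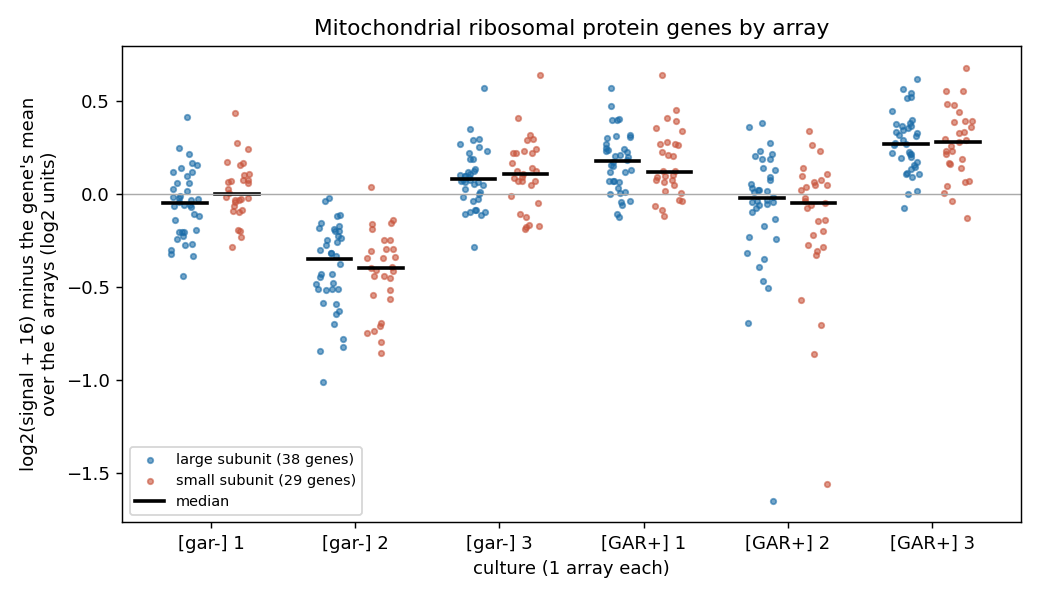
Each point is 1 member gene on 1 array, plotted as its log2(signal + 16) minus its own mean over the 6 arrays, for the large subunit (38 genes) and the small subunit (29 genes), with black lines at the medians. The lowest medians are those of [gar-] culture 2 (-0.35 for the large and -0.40 for the small subunit), and the lowest points of [GAR+] culture 2 are MRP7 and NAM9.

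The subunits followed each other across the arrays. The median deviation of the large subunit genes was -0.05, -0.35 and 0.08 in [gar-] cultures 1, 2 and 3 and 0.18, -0.02 and 0.27 in [GAR+] cultures 1, 2 and 3. For the small subunit genes it was 0.00, -0.40 and 0.11, and then 0.12, -0.05 and 0.28. The large subunit minus the small subunit gave -0.05, 0.05 and -0.03 in [gar-] cultures and 0.06, 0.03 and -0.01 in [GAR+] cultures, so the groups overlapped in this difference. The 42 members of bacterial descent had a median SD of 0.32 over the arrays, and the 24 specific to mitochondria one of 0.24. In [gar-] culture 2 the median deviation was -0.45 for the former and -0.31 for the latter.

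The largest spreads were those of MRP7, NAM9, MRPS17 and MRPL24. MRP7, which encodes the large subunit protein related to bacterial L27, read 372, 240 and 416 in [gar-] cultures 1, 2 and 3 and 344, 76.7 and 409 in [GAR+] cultures 1, 2 and 3. NAM9, the small subunit protein related to bacterial S4, read 288, 149 and 334 and then 334, 59.9 and 257. For both genes [GAR+] culture 2 was far below the other 5 arrays, [gar-] culture 2 was the next lowest, and the remaining 4 arrays overlapped between groups. MRPS17, related to bacterial S17, was also low in both cultures numbered 2, at 162 in [gar-] and 142 in [GAR+], against 240 to 399 elsewhere. MRPS18, related to bacterial S11, read 178 and 125 there, against 269 to 324 in the others. In MRPL24, related to bacterial L28, only the [gar-] array numbered 2 was low. At the other end, MRPL9, related to bacterial L3, had an SD of 0.08 log2 units and read between 409 and 470 on every array.

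The study set the prion-carrying cultures against those lacking it, which asks here whether the level of these transcripts goes with the prion. In limma's moderated test over all 6504 probe sets, 0 of 68 members passed at a Benjamini-Hochberg adjusted p under 0.05, where 0.0154% of all tested probe sets, HXT3 alone, passed. The smallest unadjusted p among the members was 0.0135, and the smallest adjusted p was 1.00. Below the threshold the values lay mostly on one side. Of the 68 members, 57 had a fitted log2 change of [GAR+] over [gar-] above 0, against 51.8% of all tested probe sets, with a median of 0.243 among members and 0.007 among all tested probe sets. Changes ran from -0.53 to 0.64. At an unadjusted p under 0.05, 7 members were higher (1.37% of all tested probe sets were) and 0 were lower (1.61%). Signals of the groups did not overlap for 14 members that were higher in [GAR+] (4.41% of all tested probe sets) and for 1 that was lower (4.44%). Members that share their culture-to-culture variation are not independent of each other, so these counts describe the set and are no test of it.

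The median depended on [gar-] culture 2. Without it the median change of the members was 0.103, with 20 members below 0, and without both arrays numbered 2 it was 0.196, with 8 below 0. It was 0.347 without [gar-] culture 3, with 7 members below 0, and 0.318 without [GAR+] culture 2, with 2 below 0. Without [GAR+] culture 3 it was 0.169, with 16 below 0. In all these fits 0 members passed.

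**Figure D2:**
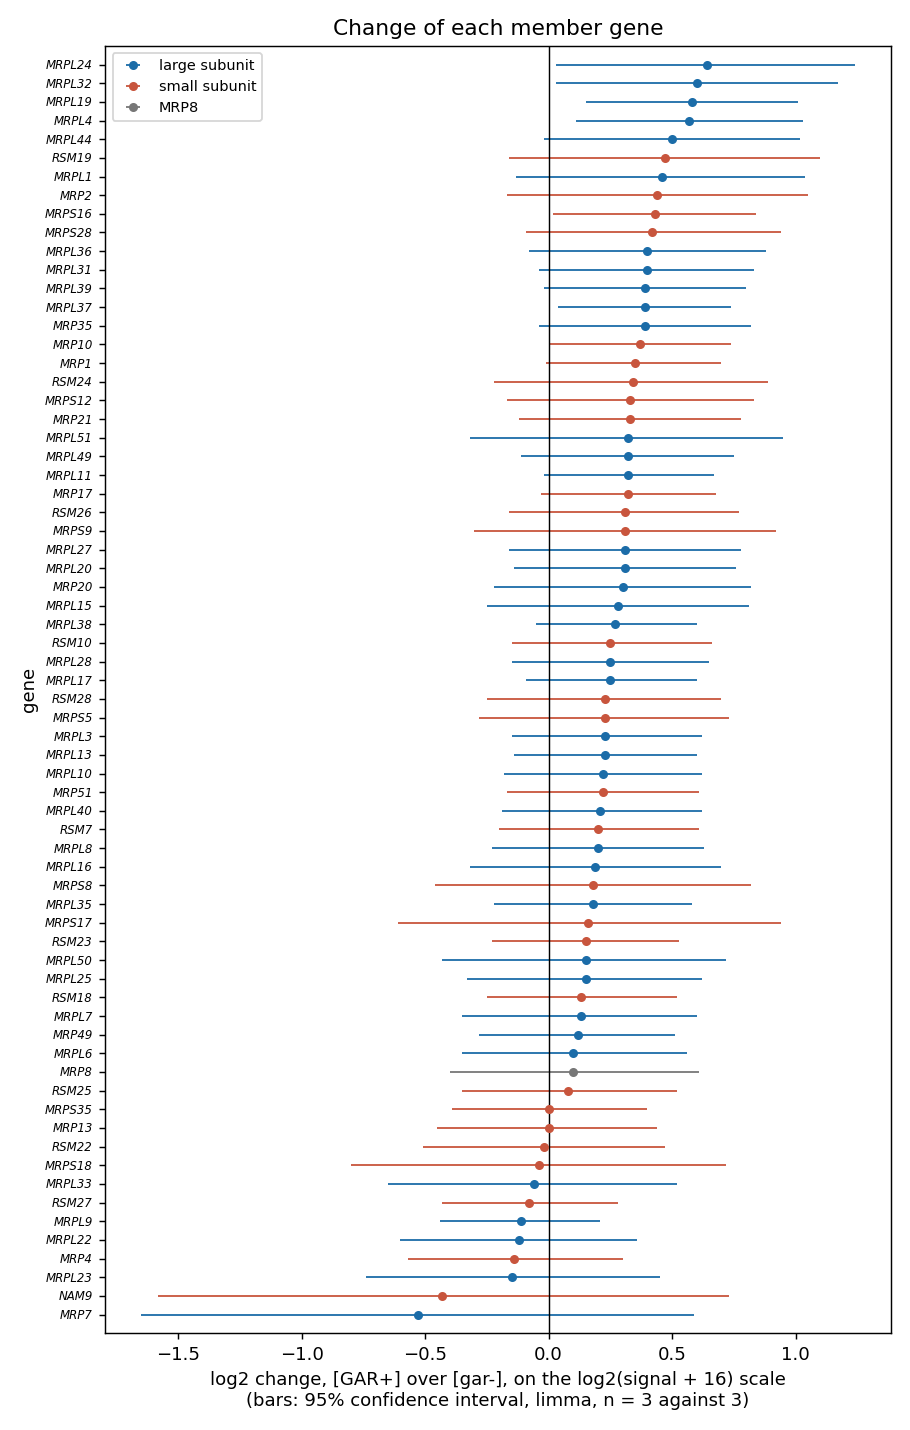
The log2 change of each of the 68 members, [GAR+] over [gar-], with its 95% confidence interval from limma (3 against 3 arrays), coloured by subunit and ordered by size. Most points lie right of 0, most intervals include it, and the widest are those of MRP7 and NAM9 at the bottom.

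The intervals give the precision of each change, 1 gene at a time and with no allowance for the number of members. For 58 of 68 members the 95% confidence interval of the fold change lay within 2-fold in either direction, against 96.1% of all tested probe sets. It lay within 1.5-fold for 12, against 61.3%. The pseudocount of 16 pulls the changes of dim genes toward 0, and without normalization between arrays the median of all tested probe sets was itself 0.158 and that of the members 0.416.

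Among large subunit genes, 33 of 38 had a change above 0, with a median of 0.263, 0.157 without [gar-] culture 2 and 0.237 without both arrays numbered 2. The 4 largest values were those of MRPL24, MRPL32, MRPL19 and MRPL4, in each of which all 3 [GAR+] signals lay above all 3 [gar-] signals. MRPL24 read 360, 174 and 388 in [gar-] cultures 1, 2 and 3 and 427, 476 and 483 in [GAR+] cultures 1, 2 and 3. Its means were 308 ± 116 and 462 ± 30.7 (SD, n = 3), a change of 0.64 with a standard error of 0.27 (limma, adjusted p = 1.00). Without [gar-] culture 2 this change was 0.29.

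MRPL32, related to bacterial L32, read 333, 195 and 379 in [gar-] cultures and 381, 419 and 566 in [GAR+] cultures. Its log2 change of 0.60 (standard error 0.25) was 0.33 without [gar-] culture 2, and the highest [gar-] and lowest [GAR+] signals were nearly equal. MRPL19, related to bacterial L11 of the factor-binding region, read 148, 123 and 171 and then 279, 210 and 197. It had the smallest unadjusted p of the members (limma, 0.0135), at a change of 0.58 with a standard error of 0.19, and gave 0.47 without [gar-] culture 2. Here it was [GAR+] culture 1 that stood highest. MRPL4, related to bacterial L29, read 230, 183 and 315 and then 327, 386 and 368, a change of 0.57 with a standard error of 0.21, or 0.40 without [gar-] culture 2. MRPL37, a protein found in mitochondria only, read 756, 597 and 611 and then 766, 909 and 907, a change of 0.39 with a standard error of 0.16. Cultures numbered 1 were nearly equal for it, while those numbered 2 and 3 were apart.

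Another 8 members had groups that did not overlap, all higher in [GAR+], but an unadjusted p over 0.05, and they are named because of that pattern. In the large subunit they were MRPL44, MRPL39, MRPL11, MRPL38, MRPL17 and MRPL28, and in the small subunit MRP1 and MRP17. Several of them were even from culture to culture. MRPL11, related to bacterial L10 of the stalk base, read 232, 225 and 263 in [gar-] cultures 1, 2 and 3 and 297, 299 and 316 in [GAR+] cultures 1, 2 and 3, a change of 0.32 with a standard error of 0.15. MRPL38, related to bacterial L14, read 621, 546 and 598 and then 747, 739 and 655, a change of 0.27 with a standard error of 0.14. MRPL17, found in mitochondria only, read 322, 322 and 379 and then 426, 382 and 417, a change of 0.25 with a standard error of 0.15. In MRPL11 and MRPL17 [gar-] culture 2 was close to [gar-] culture 1. Without that culture the changes of the 3 genes were 0.28, 0.22 and 0.21.

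MRP1, a small subunit protein found in mitochondria only, read 506, 419 and 462 in [gar-] cultures and 664, 576 and 539 in [GAR+] cultures, a change of 0.35 with a standard error of 0.16. MRP17, related to bacterial S6, read 518, 412 and 480 and then 532, 620 and 619, a change of 0.32 with a standard error of 0.16. In MRP17 the cultures numbered 1 were nearly level, and in MRP1 all 3 numbers were apart. MRPL39, related to bacterial L33, read 725, 822 and 857 and then 882, 967 and 1366, so its change of 0.39 leaned on [GAR+] culture 3. In bulk cultures such as these, fewer cells with a transcript and less of it in each cell cannot be told apart.

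**Figure D3:**
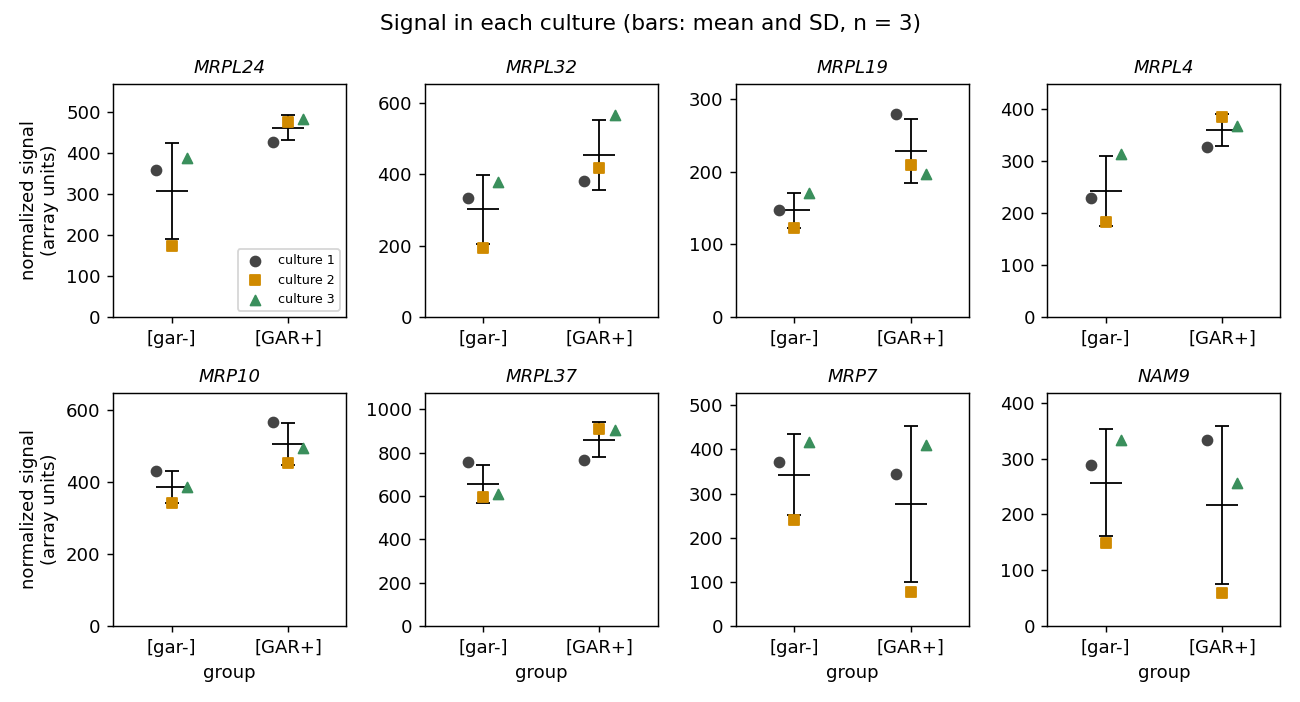
Normalized signal in each culture for 8 members, with symbols for the culture numbers and bars for mean and SD (n = 3). The first 6 genes show [GAR+] signals above all [gar-] signals, and in MRP7 and NAM9 [GAR+] culture 2 reads 76.7 and 59.9, far below the other arrays.

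The 5 large subunit genes with a change below 0 were MRP7, MRPL23, MRPL22, MRPL9 and MRPL33. Only MRP7 stayed below 0 without normalization between arrays, where the median of all tested probe sets was itself 0.158. After normalization MRP7 gave -0.53 with a standard error of 0.50 and, without [GAR+] culture 2, 0.161. MRPL23 (related to bacterial L13) and MRPL22 (related to bacterial L22, which lines the exit tunnel) gave -0.15 and -0.12, and without [GAR+] culture 2 they gave 0.162 and 0.083. MRPL9 was the only member with all [GAR+] signals below all [gar-] signals. It read 470, 420 and 461 in [gar-] cultures and 420, 415 and 409 in [GAR+] cultures, a change of -0.11 with a standard error of 0.14, and the nearest signals of the groups were almost the same. MRPL33 gave -0.06, a value named after it was seen. The second probe set of MRPL44 gave 0.30, with means of 33.9 ± 6.55 and 45.5 ± 6.85, beside 0.50 for the one used here, with means of 211 ± 68.9 and 294 ± 13.8 (SD, n = 3). The latter change was 0.24 without [gar-] culture 2.

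Among small subunit genes, 23 of 29 had a change above 0, with a median of 0.226, 0.049 without [gar-] culture 2 and 0.148 without both arrays numbered 2. RSM19, related to bacterial S19, read 351, 200 and 445 in [gar-] cultures 1, 2 and 3 and 440, 354 and 557 in [GAR+] cultures 1, 2 and 3. Its change was 0.47 with a standard error of 0.28, or 0.16 without [gar-] culture 2 and 0.31 without both arrays numbered 2. The groups overlapped, although [GAR+] was higher at each culture number. MRP2, related to bacterial S14, read 547, 321 and 573 and then 753, 448 and 770. Within the numbers its differences were 0.45, 0.46 and 0.42 log2 units, among the most even of the named members, while its fitted change of 0.44 had a standard error of 0.27 because both cultures numbered 2 were low. Without [gar-] culture 2 alone that change was 0.18, and without [GAR+] culture 2 alone 0.69. Without both arrays numbered 2 it was 0.43.

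MRPS16 (related to bacterial S16) gave 0.43 with a standard error of 0.18, or 0.28 without [gar-] culture 2, and its groups overlapped. MRPS28 (related to bacterial S15) gave 0.42, and there the cultures numbered 1 were level at 436 and 424 while [gar-] culture 2 was low at 217. Without that array its change was 0.17. MRP10, a small protein found in mitochondria only, read 431, 343 and 388 and then 568, 453 and 496. All its [GAR+] signals lay above all [gar-] signals, at a change of 0.37 with a standard error of 0.16 (limma, unadjusted p = 0.0489). MRP51, which in yeast is known to act on the leaders of mitochondrial messages, gave 0.22 with a standard error of 0.17, and its groups overlapped.

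The 6 small subunit genes below 0 were NAM9, MRP4, RSM27, MRPS18, RSM22 and MRP13. Only NAM9 stayed below 0 without normalization between arrays, where the median of all tested probe sets was itself 0.158. After normalization NAM9 gave -0.43 with a standard error of 0.52 and, without [GAR+] culture 2, 0.248. MRP4 (related to bacterial S2) gave -0.14, RSM27 -0.08 and MRPS18 -0.04. RSM22 gave -0.02, with means of 52.7 ± 17.4 and 51.2 ± 12.9 (SD, n = 3). MRP13, found in mitochondria only, had means of 190 ± 18.8 and 192 ± 46.8 (SD, n = 3) and was named after its value was seen. MRP8, in neither subunit, gave 0.10 with a standard error of 0.22 and read 501 in [gar-] culture 3, the highest of its 6 signals.

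Grouped by descent, the changes covered overlapping ranges. Of 42 genes of bacterial descent 34 lay above 0, with a median of 0.24, and of 24 specific to mitochondria 22 did, with a median of 0.25. Without [gar-] culture 2 these medians were 0.10 and 0.14, and without both arrays numbered 2 they were 0.20 and 0.21. The former ran from -0.53 to 0.64 and the latter from -0.08 to 0.50. MRP7 and NAM9, with the lowest values, are both of bacterial descent.

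Same-numbered arrays tended to deviate from their group means in the same direction, with modest correlations of 0.322, 0.347 and 0.346. The comparison was therefore also read within each culture number. The median member was higher in [GAR+] by 0.21 log2 units at number 1, 0.33 at number 2 and 0.21 at number 3, where all tested probe sets gave 0.00, 0.00 and 0.01. At number 1, 56 of 68 members were higher in [GAR+], at number 2, 52, and at number 3, 49. Of all 6504 tested probe sets, 3255, 3270 and 3435 were higher at the respective numbers. At all 3 numbers 34 of 68 members were higher in [GAR+], against 15.4% of all tested probe sets, and 3 members were lower, against 13.5%. Those 3 were MRP7, MRPL9 and MRPL33. The 34 comprised 22 of 38 large and 12 of 29 small subunit genes. When limma was fitted with culture number as a block, it gave 19 members an unadjusted p under 0.05, all higher in [GAR+], where 3.21% of all tested probe sets were higher and 3.57% lower at that level. Without the block there were 7, where 1.37% of all tested probe sets were higher and 1.61% lower. Here too 0 members passed, with a smallest adjusted p of 0.735.

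**Figure D4:**
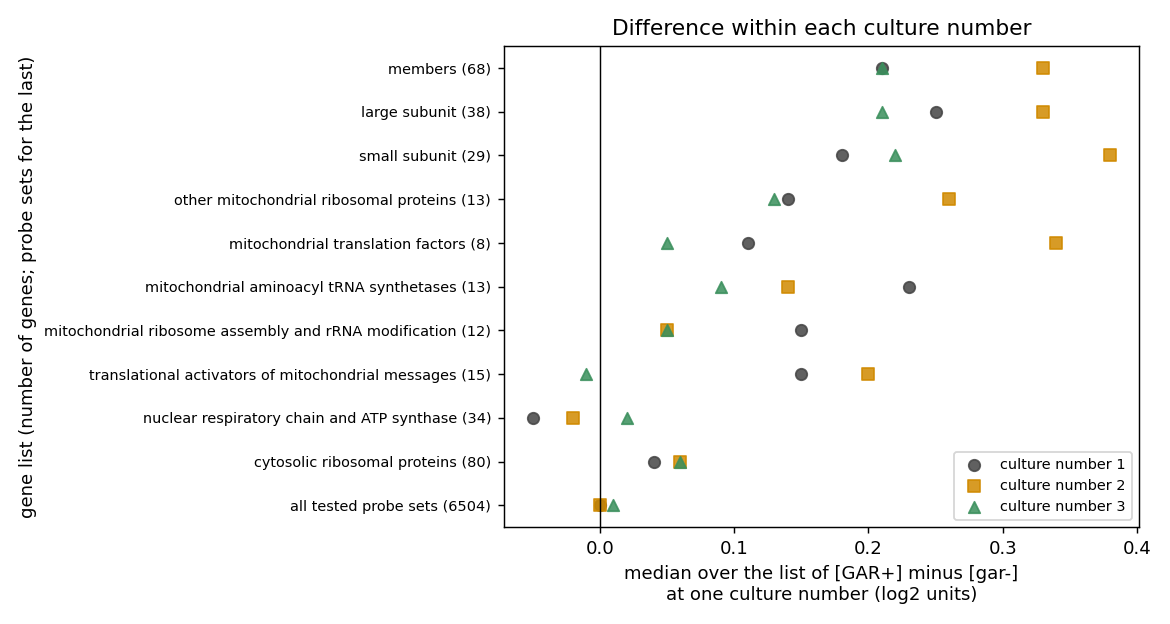
The median over each gene list of the difference [GAR+] minus [gar-] within culture number 1, 2 or 3, in log2 units, with the number of genes in brackets. The members lie at 0.21, 0.33 and 0.21, the nuclear respiratory chain genes between -0.05 and 0.02 and all tested probe sets at 0.00 to 0.01.

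Other genes of the mitochondrial ribosome, which carry names outside the pattern, were measured for 13 proteins. Of these, 9 had a change above 0 (51.8% of all tested probe sets did), with a median of 0.27, and 0 passed. At an unadjusted p under 0.05, 1 was higher (7.69%, against 1.37% of all tested probe sets) and 0 were lower (against 1.61%). PET123, a small subunit protein, gave 0.62 with a standard error of 0.27, with means of 96.5 ± 37.7 in [gar-] and 153 ± 36.6 in [GAR+] (SD, n = 3). It read 55.8 in [gar-] culture 2, against 103 and 130 in the others, and its change was 0.33 without that culture. MRX14 gave 0.52, also with its lowest signal, 302, in [gar-] culture 2, and 0.20 without it. The median of this list was 0.04 without [gar-] culture 2 and 0.16 without both arrays numbered 2. VAR1, the protein gene of the mitochondrial genome, read 7.58 or less on each array, below the control level, so nothing can be said of it.

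The wider machinery of mitochondrial translation also had medians above 0, with 0 genes passing in limma in any of these lists. For 8 translation factors the median was 0.27, or 0.12 without [gar-] culture 2. Of these, 7 lay above 0 (51.8% of all tested probe sets did) and 0 had an unadjusted p under 0.05. At that level 1.37% of all tested probe sets were higher and 1.61% lower, so 0 in a list this short carries little information. RRF1, the ribosome recycling factor, gave 0.37. For 13 mitochondrial aminoacyl tRNA synthetases it was 0.14, or 0.00 without that culture, with 10 above 0 and 0 at an unadjusted p under 0.05. MSY1, the tyrosyl enzyme, read 44.7 in [gar-] culture 2 against 97.5 to 141 elsewhere and gave 0.58, or 0.24 without that array. For both lists [gar-] culture 2 had the lowest median deviation, -0.54 and -0.45. Without both arrays numbered 2 the median changes of the 2 lists were 0.10 and 0.13.

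For 12 genes of ribosome assembly, RNA modification and insertion the median change was 0.11, with 8 above 0 (51.8% of all tested probe sets were). It was 0.03 without [gar-] culture 2 and 0.08 without both arrays numbered 2. MSS116, an RNA helicase of mitochondrial splicing, read 595, 589 and 618 in [gar-] cultures and 820, 713 and 896 in [GAR+] cultures, a change of 0.42 with a standard error of 0.15 (limma, unadjusted p = 0.0192, adjusted p = 1.00). For 15 translational activators of mitochondrial messages the median was 0.08, with 12 above 0. It was 0.12 without [gar-] culture 2 and 0.07 without both arrays numbered 2. CBP3, which acts on cytochrome b synthesis, read 253, 268 and 271 and then 363, 338 and 378, a change of 0.42 with a standard error of 0.15 (limma, unadjusted p = 0.0183). In MSS116 and CBP3 the groups did not overlap and [gar-] culture 2 was level with the other [gar-] cultures, unlike in most members. OXA1, of the assembly list, gave 0.69 with a standard error of 0.44. It read 130 in [gar-] culture 2 against 429 to 656 elsewhere, and gave 0.07 without that array. Groups did not overlap for 1 assembly gene that was higher and 1 that was lower (8.33% each, against 4.41% and 4.44% of all tested probe sets). Among the activators 2 were higher (13.3%) and 0 lower. At an unadjusted p under 0.05, 1 of 12 assembly genes (8.33%) and 2 of 15 activators (13.3%) were higher in [GAR+]. Of all tested probe sets 1.37% were higher at that level and 1.61% lower, and 0 genes of either list were lower. The second activator was PET111, at a change of 0.46.

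The products of mitochondrial translation join some of the nuclear-encoded proteins of the respiratory chain and ATP synthase. Taken as a whole, the changes of the nuclear genes of both were centred near 0. Of 34 nuclear genes of the respiratory chain and ATP synthase, 15 had a change above 0, against 51.8% of all tested probe sets. An unadjusted p under 0.05 was reached by 0 of them, where 1.37% of all tested probe sets were higher and 1.61% lower. The median of the 34 was -0.01, or -0.08 without [gar-] culture 2 and -0.03 without both arrays numbered 2. Their median deviation in [gar-] culture 2 was -0.07, where that of the members was -0.39. In part they shared the members' pattern over the culture numbers. Of the 34, 23 (67.6%) had their lowest signal in a culture numbered 2, against 42.2% of all tested probe sets. For 15 (44.1%) it was in [GAR+] culture 2, against 22.2%. Culture 3 had the highest median deviation in each group, 0.13 in [gar-] and 0.12 in [GAR+]. The cytosolic ribosomal protein genes did not share the low level of [gar-] culture 2, with a median deviation of 0.04. Of these 80 genes 56 lay above 0, against 51.8% of all tested probe sets. The median of the 80 was 0.07, also without [gar-] culture 2 or both arrays numbered 2. At an unadjusted p under 0.05, 4 were higher (5.0%, against 1.37% of all tested probe sets) and 0 lower (against 1.61%). The groups did not overlap for 9 that were higher (11.2%, against 4.41%) and 0 that were lower (against 4.44%). At all 3 culture numbers 26 were higher (32.5%, against 15.4%). RPS7B and RPL9B gave 0.40 and 0.56 (limma, unadjusted p = 0.00521 and 0.00685), and 0 of the 80 passed. The differences between lists were not tested.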

How the data were processed

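Signals of 6 Affymetrix arrays were analysed, 1 per culture, with groups and numbers from the sample titles. The deposited values are linear array intensities made with MAS5 and GCOS, per the submitters' processing notes; no source used here gives versions, scaling target, detection calls or genome build. All 9335 probe sets were quantile-normalized, because the deposited arrays do not share a scale. The 6504 tied to 1 gene in the platform annotation of 2016 were analysed as log2(signal + 16) (328 have several genes, 2503 are unnamed). All 69 member probe sets matched the R64 gene table, whose synonyms gave subunit and descent for 66 members. limma 3.58.1 in R 4.3.3 (lmFit, eBayes with an intensity trend, two-sided, Benjamini-Hochberg over 6504) compared [GAR+] with [gar-]. An exact permutation test of 3 against 3 cannot give a p under 0.1 and was not used. Precision is limited by having 3 arrays per group, and members had a median standard error of 0.202.

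Culture numbers were treated as pairs in an alternative fit: deviations of same-numbered arrays correlated at 0.322, 0.347 and 0.346, those of different numbers at -0.311 to 0.0751. No label states what a number shares. No 2 arrays were identical. On simulated data with the 6504 probe sets, 200 of them changed, 11 of 40 were called at 1.5-fold, 27 of 40 at 2-fold and 40 of 40 at 4-fold, with 14 unchanged ones called. The changed ones were drawn from brighter probe sets, and each probe set varied on its own, without variation shared between genes. With 200 changed, the adjusted threshold is easier to reach than in the real data, where HXT3 alone passed. These rates thus do not say how large a change could have been found in the members. Members and lists were chosen with earlier results of these data known. MRP35, placed outside the members when the lists were written, matches the rule and was counted with the large subunit. Genes were named by this rule: members that pass; up to 10 per direction with groups apart and unadjusted p under 0.05; the 4 largest positive and negative changes per subunit; the 4 largest SDs; MRP8, RSM22, NAM9, MRP51 and HXT3; and 2 genes of smallest p per other list, not all of which are printed. Alternatives were other scalings, pseudocounts of 1 and 64, a minimum mean signal of 50, the block, no trend, the mean of a gene's probe sets and leaving out arrays. Promoter motifs were not analysed here.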

Additional observations from a re-analysis of the deposited data

How the results depend on the processing

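In every alternative run, 1 probe set passed (not counted in the fit on gene means) and 0 members passed. The median change of the members stayed above 0 throughout, between 0.103 and 0.347 with 1 array left out, and those of the large and small subunit between 0.157 and 0.360 and between 0.049 and 0.331. The number of members below 0, 11 of 68, was 2 without normalization between arrays and 2 to 20 with 1 array left out; the cause was not tested. The replicate block (culture number) left medians and the number below 0 as they were, and changed no adjusted call. It gave 19 in place of 7 members an unadjusted p under 0.05. Over all tested probe sets it also raised the share higher at that level from 1.37% to 3.21%, and the share lower from 1.61% to 3.57%. Of the named members, MRP4, MRPL22, MRPL23, MRPL9, MRPS18, RSM22 and RSM27 changed sign without normalization between arrays (0.043, 0.058, 0.029, 0.065, 0.148, 0.167 and 0.098), where the median of all probe sets was 0.158. RSM22 also did with trimmed-mean scaling (0.006). Without both arrays numbered 2, MRPL23, MRPS18, RSM22 and RSM27 gave 0.026, 0.172, 0.060 and 0.005. With 1 array left out, the range included both signs for MRP7 (-0.937 to 0.161), NAM9 (-0.854 to 0.248), MRP8 (-0.034 to 0.341), MRPL22 (-0.243 to 0.083), MRPL23 (-0.340 to 0.162), MRPS17 (-0.138 to 0.556), MRPS18 (-0.255 to 0.379), RSM22 (-0.145 to 0.176) and RSM27 (-0.158 to 0.004). The other 305 comparisons for single named members kept their direction. Signals of all members lay above the controls, and the median standard error of their changes was 0.202, against 0.179 over all tested probe sets.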

Other observations

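The genes of regulators and of the mitochondrial transcription apparatus gave values that the comparison above did not use. Of 12 measured, 9 had a change above 0 (51.8% of all tested probe sets did), and 0 passed in limma. An unadjusted p under 0.05 was reached by 0 of them, where 1.37% of all tested probe sets were higher and 1.61% lower. The median of the 12 was 0.08, or 0.05 without [gar-] culture 2 and 0.11 without both arrays numbered 2. PUF3, whose protein in yeast binds messages of many mitochondrial proteins, including those of the ribosome, read 15.7 to 31.3, near the control level, and gave -0.05 with a standard error of 0.18. HAP4, the activator subunit of the complex that drives respiratory genes, had a change of -0.13, from 274 ± 43.1 to 249 ± 41.9 (SD, n = 3). Without [gar-] culture 2 that change was -0.02. It read 321 in [gar-] culture 2, the highest of its 6 signals, where most members read lowest. RPO41, the mitochondrial RNA polymerase, gave 0.33 with a standard error of 0.19 and FHL1, a regulator of cytosolic ribosomal protein genes, 0.29 with a standard error of 0.19.

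Of 8 transcripts encoded in mitochondria, COX2, COX3, COB, ATP8 and VAR1 had means of 6.06 or less in both groups, below the control level, so no direction is read from them. ATP6 had means of 20.6 in [gar-] and 18.1 in [GAR+], near the control level, and gave -0.12 with a standard error of 0.18. OLI1 read 948, 1126 and 826 in [gar-] cultures and 482, 774 and 769 in [GAR+] cultures, a change of -0.53 with a standard error of 0.21 (limma, unadjusted p = 0.0323, adjusted p = 1.00). At an unadjusted p under 0.05, 1 of the 8 was lower (against 1.61% of all tested probe sets) and 0 were higher (against 1.37%). COX1 gave 0.15 with a standard error of 0.27, and between -0.17 and 0.42 with 1 array left out. How far poly(A) purification retained these transcripts is not known.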
